A study of Arabidopsis thaliana with 14 samples.

Results

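The genes described are members of the families that build, acetylate and trim the polysaccharides of the plant cell wall in Arabidopsis thaliana seedlings. They were chosen by gene symbol, as genes named TBL (trichome birefringence-like), GH9 (the glycosyl hydrolase family of endoglucanases), CSL (cellulose synthase-like), CESA, COB, IRX, GAUT or GATL, with a single gene on the probe set and a mean signal of at least 50 over all arrays. Expansins and xyloglucan endotransglucosylases were not included. Of 49 genes with such a symbol, 38 reached the minimum, out of 9787 genes in the series named by probe sets of 1 gene at that level. They were 17 of 22 TBL genes, 11 of 15 GH9 genes, 7 of 8 CSL genes, COB, GAUT15 and IRX15-L. No CESA or GATL gene was named on a probe set of 1 gene, so the cellulose synthases themselves were not analysed here.

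The study measured whole seedlings on 14 arrays to ask how brassinosteroids, the steroid hormones of plants, act as seedlings pass from darkness to light. The mutant det2, which the labels call deficient in brassinosteroids, was grown for 7 days in the dark, for 7 days in light, or to 14 days in light and then held in the dark for 8 h. Col, the wild type, was 7 days old and dark-grown throughout: with BL (brassinolide, the most active brassinosteroid) and then lit for 2 h, lit for 2 h without BL, kept dark with BL, or kept dark and untreated. Each of these 7 groups had 2 arrays. How much BL was given, for how long, and how bright the light was are not stated in the labels, which write BR for the hormone in some places. No wild-type group was handled without being lit, so light and handling cannot be told apart. The labels do not say that the 2 arrays of a group came from separate plants, so each p-value rests on the spread between arrays that may be technical repeats.

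Cellulose fibrils in the growing wall are tethered by hemicelluloses, chiefly xyloglucan, and lie in a pectin gel; enzymes that make, decorate or cut these polymers bear on how far a cell can elongate. CSLC proteins make the glucan backbone of xyloglucan and CSLA proteins that of mannans, while TBL proteins place acetyl groups on xylan, mannan, xyloglucan or pectin, with several members still without an assigned polymer. GH9 enzymes cut glucan chains, some anchored in the membrane (class A), most secreted (class B) and some carrying a carbohydrate-binding module (class C). COBRA (COB) is a lipid-anchored protein at the cell surface needed for ordered cellulose fibrils in elongating cells. Brassinosteroids promote elongation in the dark, and light restrains it in the hypocotyl.

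Signals are linear array units, already on a common scale as deposited, with a trimmed mean of 500 on every array. The array medians lay between 187.9 and 218.6, and the replicates of a group correlated at 0.963 to 0.981. The mean signal was 672.1 to 696.0 on the det2 arrays and 617.2 to 642.9 on the wild-type arrays. Changes are differences of log2(signal + 16), which understates the change of dim genes, and a gene passed where limma's Benjamini-Hochberg adjusted p over 17788 probe sets was under 0.05. In every comparison below, the groups compared did not overlap for any member that passed. The same was true of members that did not pass, such as TBL41 and GH9C1 with BL in the dark. The share over all probe sets was not computed, so the lack of overlap is a description only. In RNA from whole seedlings, fewer cells of a type and less RNA per cell cannot be told apart.

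Expression of COB, the marker of elongating cells for this set, was high in all groups. Its signal was 1995.9 and 2284.8 in dark det2, 2712.4 and 2777.1 in det2 returned to the dark, and 2114.3 and 2018.6 in light-grown det2. In the wild type it was 3879.7 and 3338.7 with BL and light, 2374.8 and 2102.2 with light, 4221.7 and 3631.4 with BL in the dark, and 2859.8 and 2466.3 in the untreated dark. The 4 arrays with BL were the highest of the 14, whether dark or lit, and the lowest single array was one of dark det2. In order of the mean came dark BL, lit BL, returned det2, dark wild type, lit wild type, dark det2 and light-grown det2. Neighbours in this order overlapped, except that lit BL lay above returned det2 and dark wild type above lit wild type. Of 9901 probe sets of 1 gene compared over the 7 group means, those most like COB were AT5G59350 (r = 0.967), AT3G11180 (r = 0.965) and AT3G42725 (r = 0.965), although AT5G59350 spanned only 0.27 on the log2 scale. Among the members, CSLC04 (r = 0.797), CSLC6 (r = 0.781), CSLC5 (r = 0.758) and TBL41 (r = 0.744) came nearest; these are descriptions over 7 points that share arrays.

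With BL in dark-grown wild type, 1 of 38 members passed. GH9B13, a secreted endoglucanase of class B, had 5606.2 and 5395.9 in BL-treated seedlings, against 3013.3 and 2499.8 in untreated seedlings. It rose 2.0-fold (log2 1.0 ± 0.20, SE; adjusted p = 0.0165). Over all probe sets 3.42% passed, 1.53% higher and 1.89% lower, so the members' share of 2.63% was near the background. The median change was 0.18 for the members and 0.05 for all probe sets, with 28 members above 0 and 10 below.

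The remaining members with large differences in the dark missed the test. TBL41, with no assigned polymer, had 729.1 and 1825.4 with BL, against 336.0 and 561.0 without (log2 1.38, adjusted p = 0.1). The 2 BL arrays were both above the untreated ones but lay far apart from each other. GH9C1, an endoglucanase of class C, had 113.8 and 320.2 with BL, against 404.8 and 505.9 without (log2 -1.17, adjusted p = 0.125). COB was 0.56 higher and did not pass (adjusted p = 0.053). It passed after quantile normalization (adjusted p = 0.0404) and with a pseudocount of 64 (adjusted p = 0.0496). It did not pass without the signal filter (adjusted p = 0.0634), without the variance trend (adjusted p = 0.125) or on wild-type arrays alone (adjusted p = 0.243). With an array left out, the COB value lay between 0.45 and 0.67. All 5 CSLC genes had values above 0, between 0.16 and 0.50, also after quantile normalization, and 0 of them passed by limma. The call of GH9B13 was lost without either BL array or without dark wild-type replicate 2 (adjusted p up to 0.122), and the member count without that last array was 0.

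**Figure D1:**
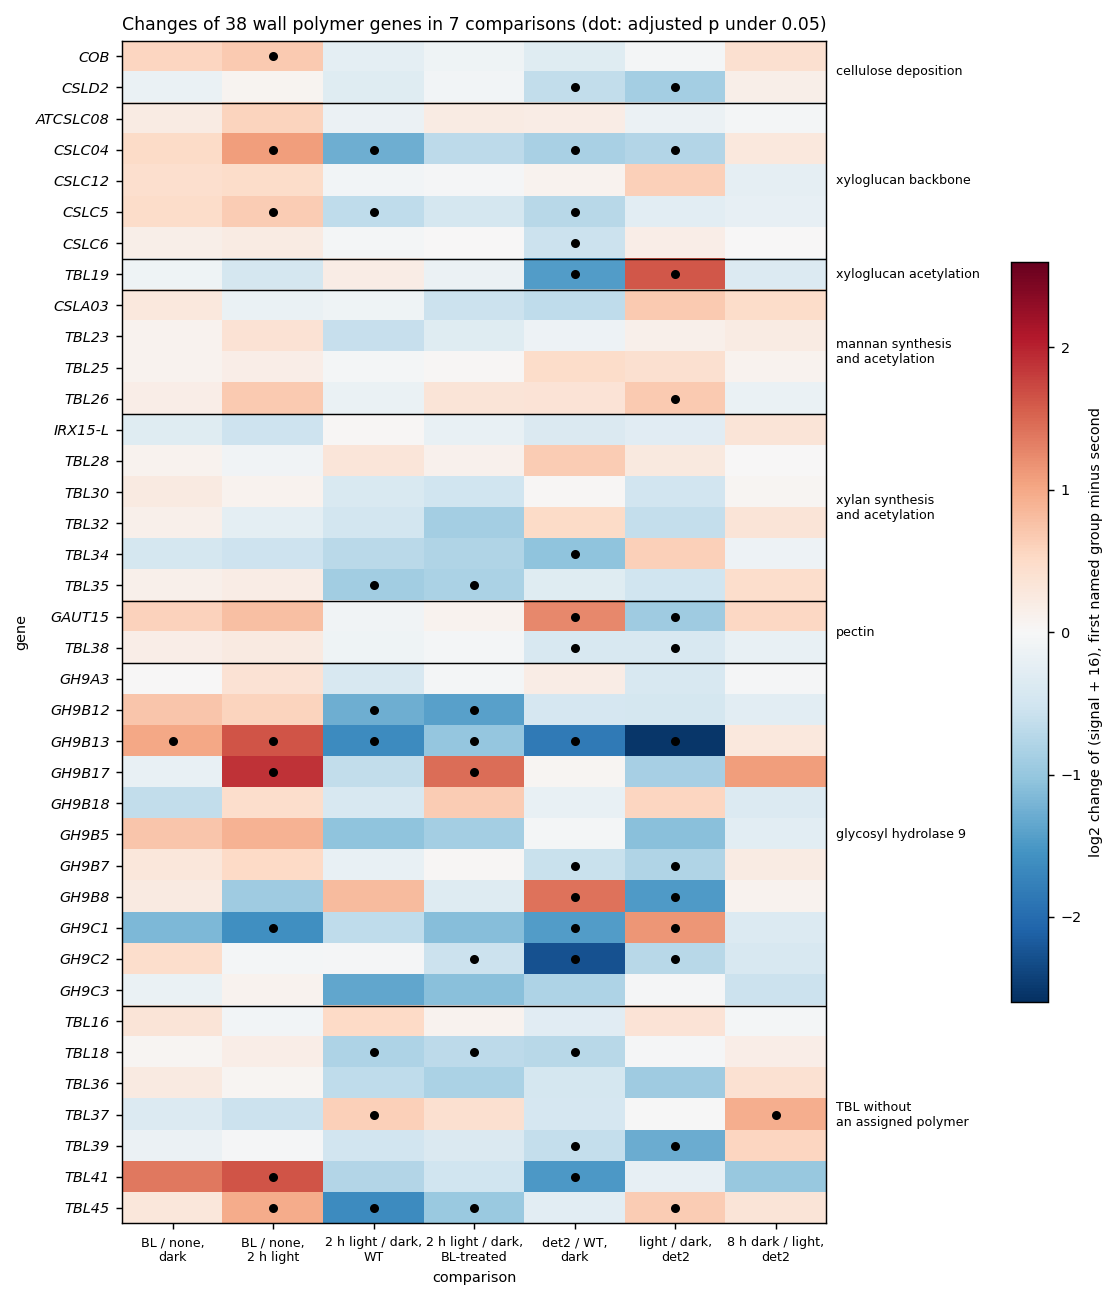
Log2 change of signal + 16 (colour) of the 38 members (rows, by role) in 7 comparisons (columns), the group named first in each label over the second. Black dots mark members that passed; they are most frequent for det2 against wild type in the dark, with 14 lower and 2 higher.

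With BL in seedlings that were then lit for 2 h, 8 members passed, 7 higher and 1 lower. Those higher were GH9B13, the xyloglucan backbone genes CSLC04 and CSLC5, TBL45, TBL41, GH9B17 and COB. In all probe sets 4.25% passed, 2.17% higher and 2.08% lower, against 18.4% of members higher, GH9B17 included, and 2.63% lower. The median change was 0.21 for the members and 0.08 for all probe sets.

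GH9B13 had 2699.3 and 2764.7 with BL and light, against 909.7 and 838.6 with light alone. Both BL arrays lay far above both others, and the gene rose 3.09-fold (log2 1.63 ± 0.20, adjusted p = 0.000855). The BL-treated, lit seedlings thus stood at the level of untreated dark ones, which had 3013.3 and 2499.8.

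CSLC04 had 1916.1 and 2544.4 with BL and light, against 777.4 and 1359.5 with light alone. It rose 2.13-fold (log2 1.09 ± 0.22, adjusted p = 0.015), although the light-only arrays differed from each other almost as widely. CSLC5, of the same family, had 1009.6 and 1102.8 with BL, against 585.8 and 743.1 without. Its rise was 1.58-fold (log2 0.66 ± 0.15, adjusted p = 0.0269), and the other 3 CSLC genes, CSLC6, ATCSLC08 and CSLC12, had values of 0.22, 0.57 and 0.47 without passing.

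TBL45, which has no assigned polymer, had 384.4 and 420.4 with BL and light, against 178.7 and 219.2 with light alone. This was a rise of 1.95-fold (log2 0.97 ± 0.19, adjusted p = 0.011). TBL41 had 651.9 and 984.4, against 233.8 and 261.9, a rise of 3.1-fold (log2 1.63 ± 0.41, adjusted p = 0.0424). The lit TBL41 arrays with BL lay above all arrays without BL, and those with light alone lay below the untreated dark ones.

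GH9B17, a class B endoglucanase and the dimmest member, was bright only after BL and light together. It had 116.2 and 133.0 there, against 34.6 and 12.6 with light alone, a 3.69-fold difference (log2 1.88 ± 0.44). On the remaining 10 arrays it lay between 15.3 and 77.3, and the BL and light arrays carried it past the minimum signal, so its call is given as a description. Its neighbour on the chromosome, GH9B18, had 101.8 and 112.6 with BL and light, against 52.0 and 103.1 with light alone, and did not pass (log2 0.45, adjusted p = 0.547).

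COB rose 1.61-fold (log2 0.68 ± 0.14, adjusted p = 0.0174). GH9C1 was the 1 member that fell, with 55.2 and 116.8 in lit seedlings with BL, against 263.9 and 292.8 without (3.02-fold, log2 -1.60 ± 0.37, adjusted p = 0.028). The root hair genes EXPA7 and EXPA18, the 2 markers tested of 6 listed for root hairs, had a summed signal of 92.3 to 228.5 with BL and light, against 370.9 to 494.7 with light alone, and of 86.4 to 343.4 with BL in the dark, against 377.9 to 794.7 in the untreated dark. Neither EXPA7 nor EXPA18 passed with BL in light (adjusted p = 0.169 and 0.292) or in the dark (adjusted p = 0.321 and 0.176). Their part in the GH9C1 values was not tested.

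GH9B13 was the only call of BL in light that remained with each array left out and in every other setting. TBL41 and GH9B17 were lost without any 1 of the 4 arrays compared. Without lit BL replicate 1, COB, CSLC5 and GH9C1 were also lost; without replicate 2, CSLC5, CSLC04 and TBL45; without light-only replicate 1, CSLC5, CSLC04, TBL45 and GH9C1; and without light-only replicate 2, COB and GH9C1 (adjusted p up to 0.179). A fit to only the wild-type arrays left 1 call, and with a pseudocount of 1 TBL41 and GH9B17 did not pass.

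**Figure D2:**
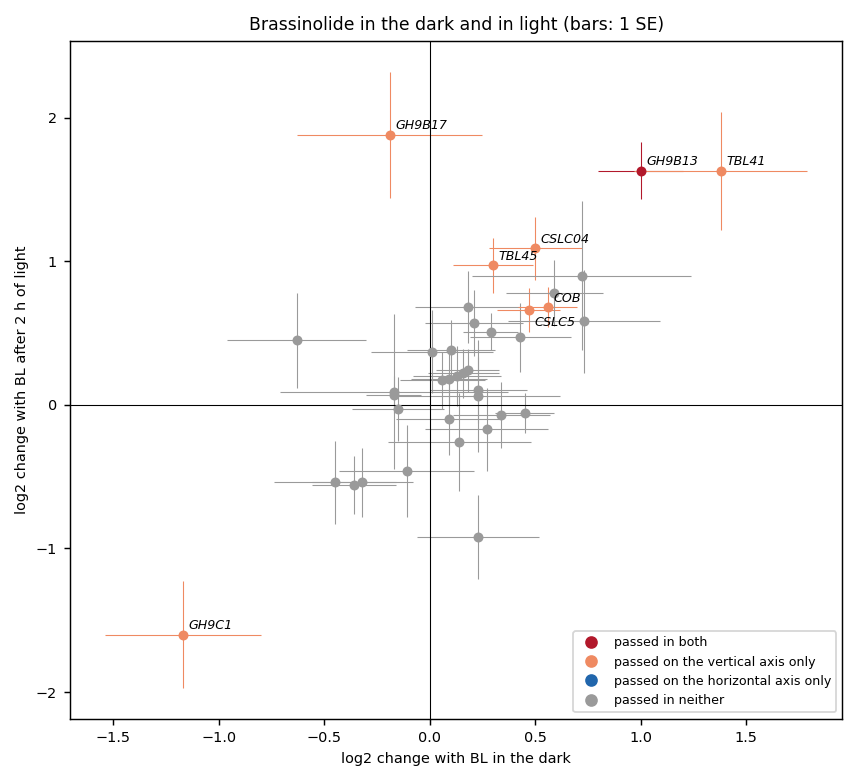
Log2 change with BL after 2 h of light (vertical) against that with BL in the dark (horizontal) for the 38 members, with bars of 1 SE. GH9B13 passed on both axes; GH9B17 lies high on the vertical axis at about 0 on the horizontal, and GH9C1 is below 0 on both.

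The 2 BL comparisons use different arrays, and their values for the members correlated at r = 0.66 (Spearman 0.57), beside 0.63 over all probe sets. Of the members, 22 were above 0 in both and 6 below 0 in both, a same-sign share of 73.7%, beside 67.4% over all probe sets. The difference between them was tested as an interaction, in which 0 members and 0.0% of probe sets passed by limma. At an unadjusted p under 0.05 there were 6 of 38 members, GH9B17 among them, and 662 of 17788 probe sets. Of these, GH9B8 had a difference in BL effect, light minus dark, of -1.15 ± 0.41 on the log2 scale (unadjusted p = 0.0155, adjusted p = 1.0). The value of GH9B17 was 2.07. This value and the count of 6 are descriptions only, because the arrays with BL and light carried that gene past the minimum signal.

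**Figure D3:**
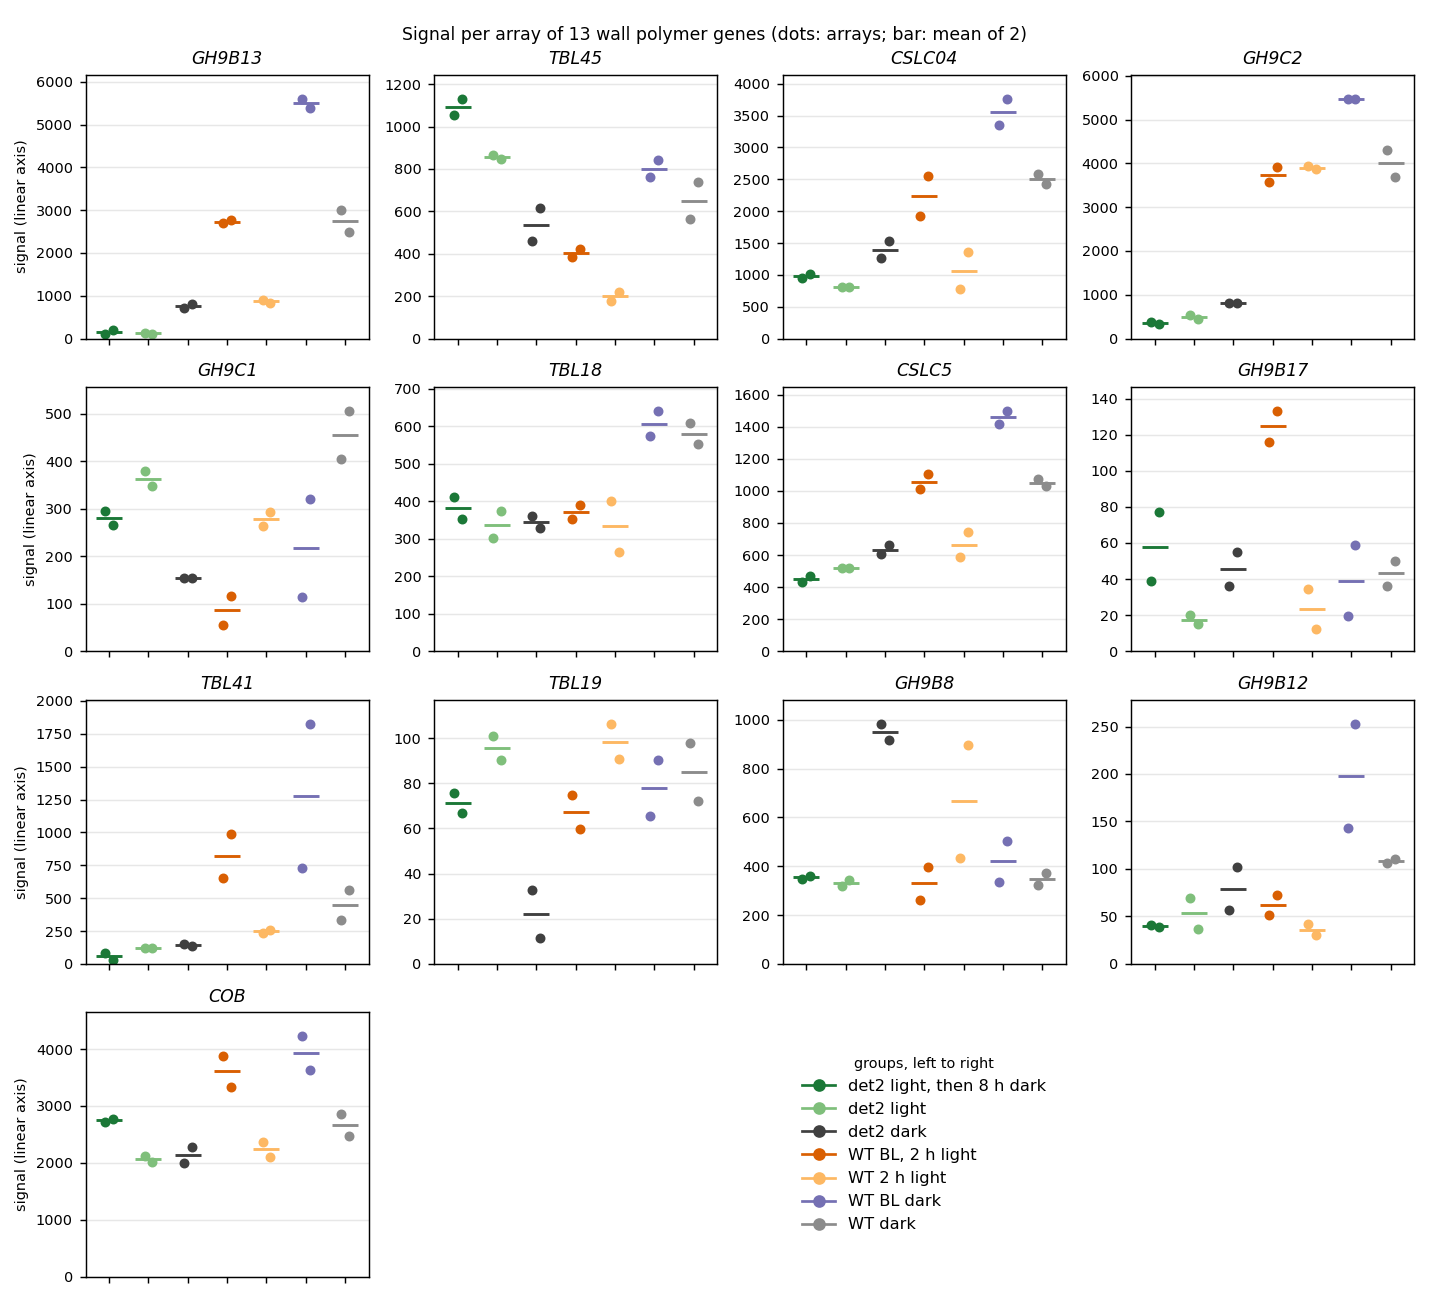
Signal of each array (dots) and the mean of 2 (bars) for 13 genes, on linear axes that start at 0, with the det2 groups left of the wild-type groups. GH9B13 is highest in dark BL-treated seedlings and lowest in det2 grown in light, and GH9C2 is low on all det2 arrays.

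Light for 2 h lowered 7 members in untreated wild type and raised 1. The 7 were GH9B13, TBL45, CSLC04, GH9B12, TBL35, TBL18 and CSLC5, and the 1 was TBL37. In all probe sets 19.8% passed, 10.1% higher and 9.76% lower, against 2.63% of members higher and 18.4% lower. The members' median was -0.40, against -0.12 for all probe sets (-0.30 and -0.08 after quantile normalization), with 32 of 38 members below 0.

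GH9B13 had 909.7 and 838.6 in lit seedlings, against 3013.3 and 2499.8 in dark ones. It fell 3.1-fold (log2 -1.63 ± 0.20, adjusted p = 8.26e-05). TBL45 had 178.7 and 219.2 in light, against 563.2 and 738.9 in the dark, a fall of 3.09-fold (log2 -1.63 ± 0.19, adjusted p = 4.5e-05). The lit arrays of both genes lay far below any dark wild-type array.

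CSLC04 had 777.4 and 1359.5 in light, against 2579.7 and 2430.4 in the dark (2.41-fold, log2 -1.27, adjusted p = 0.00124). CSLC5 had 585.8 and 743.1, against 1073.9 and 1028.1 (1.58-fold, log2 -0.66, adjusted p = 0.00796). These 2 of the 5 xyloglucan backbone genes fell after light and rose with BL in light, and the comparisons share the light-only arrays.

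GH9B12, a dim class B endoglucanase, had 41.8 and 30.3 in light, against 106.6 and 110.0 in the dark (2.4-fold, adjusted p = 0.0244). TBL35, a xylan acetyltransferase, had 162.2 and 237.9, against 393.1 and 368.3 (1.86-fold, adjusted p = 0.00823). TBL18, with no assigned polymer, had 401.6 and 264.3, against 607.4 and 552.3 (1.74-fold, adjusted p = 0.0139). In each of the 3 the dark pair lay close together and above the lit pair. Of the 6 xylan genes, TBL35 was the 1 that passed, and the others lay between -0.70 and 0.32.

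TBL37, with no assigned polymer, ran the other way. It had 2137.2 and 2191.6 in light, against 1228.7 and 1599.3 in the dark, and rose 1.54-fold (log2 0.62 ± 0.20, adjusted p = 0.047). The calls of GH9B13, TBL45 and CSLC04 held with each array left out. TBL37, CSLC5 and TBL35 were lost without lit replicate 1, TBL37, TBL18 and GH9B12 without lit replicate 2, TBL37, TBL18 and GH9B12 without dark replicate 1, and GH9B12 without dark replicate 2 (adjusted p up to 0.247); the count without dark replicate 1 was 5. On wild-type arrays alone TBL37, CSLC5 and TBL18 did not pass (adjusted p up to 0.153).

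With BL present, light lowered 6 members and raised 1. Falling were GH9B13, TBL45, TBL35, TBL18, GH9B12 and GH9C2, a class C endoglucanase, and GH9B17 rose. In all probe sets 17.3% passed, 8.97% higher and 8.38% lower, against 2.63% of members higher and 15.8% lower. The members' median was -0.32, against -0.06 for all probe sets.

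GH9B13 had 2699.3 and 2764.7 in lit BL-treated seedlings, against 5606.2 and 5395.9 in dark BL-treated ones (2.01-fold lower, log2 -1.01 ± 0.20, adjusted p = 0.00375). TBL45 had 384.4 and 420.4, against 760.0 and 842.7 (1.95-fold lower, adjusted p = 0.00292). GH9B12 had 51.7 and 72.8, against 143.2 and 252.8 (2.67-fold lower, adjusted p = 0.0151). Each pair was well below its dark counterpart, though the dark GH9B12 arrays were far apart.

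TBL35 had 196.4 and 263.2 in light with BL, against 416.0 and 420.6 in the dark with BL (1.78-fold, adjusted p = 0.0141). TBL18 had 351.5 and 389.0, against 573.0 and 640.1 (1.61-fold, adjusted p = 0.0336), and GH9C2 had 3580.9 and 3909.0, against 5459.3 and 5478.2 (1.46-fold, adjusted p = 0.0195). GH9C2 in lit BL-treated seedlings was at the level of the untreated ones, whose 4 arrays lay between 3696.2 and 4314.3. GH9B17 had 116.2 and 133.0, against 19.3 and 59.0 (2.73-fold higher, log2 1.45). It is the 1 member counted as higher, and since it reached the minimum signal through the lit BL arrays, that count is a description only.

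GH9B12, GH9B13, TBL18, TBL35 and TBL45 fell after light both with and without BL, in comparisons that share no array; they are 13.2% of members, beside 5.53% of all probe sets. Across the members the values of the 2 light comparisons correlated at r = 0.59 (Spearman 0.69), beside 0.84 over all probe sets, and 24 members (63.2%) were below 0 in both, beside 46.2% of all probe sets. GH9B13 and TBL45 kept their call with each array left out. Without lit BL replicate 1, TBL35, GH9B17, TBL18, GH9C2 and GH9B12 were lost, and without lit BL replicate 2, GH9B17 and TBL18. Without dark BL replicate 1, TBL35, GH9B17, TBL18 and GH9C2 were lost, and without dark BL replicate 2, TBL35, TBL18, GH9C2 and GH9B12. GH9B17 changed 1.87-fold to 3.98-fold over these, and on wild-type arrays alone the count was 3.

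The det2 mutant in the dark differed from dark wild type in 16 members, 14 lower and 2 higher. The arrays of the genotypes carry separate runs of sample numbers, and no batch was among the sample labels used here. Genotype and a difference in processing therefore cannot be told apart. Lower were 4 of 11 GH9 genes (GH9C2, GH9B13, GH9C1 and GH9B7), 3 of 5 xyloglucan backbone genes (CSLC04, CSLC5 and CSLC6), 6 of 17 TBL genes (TBL41, TBL19, TBL34, TBL18, TBL39 and TBL38) and CSLD2. Higher were GH9B8 and GAUT15. In all probe sets 37.1% passed, 19.2% higher and 17.9% lower, against 5.26% of members higher and 36.8% lower. The median change was -0.40 for the members and 0.08 for all probe sets (-0.40 and 0.0 after quantile normalization).

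GH9C2 had 818.6 and 818.0 in det2, against 4314.3 and 3696.2 in wild type. It fell 4.81-fold (log2 -2.26, adjusted p = 6.63e-07). GH9B13 had 721.9 and 804.1, against 3013.3 and 2499.8 (3.55-fold, log2 -1.83 ± 0.20, adjusted p = 3.06e-05). GH9C2 was no brighter than 818.6 on any det2 array and no dimmer than 3580.9 on any wild-type array. GH9B7, another class B enzyme, had 1807.2 and 1772.7, against 2537.2 and 2800.1 (1.48-fold, adjusted p = 0.00519).

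GH9C1 had 154.8 and 155.0 in det2, against 404.8 and 505.9 in wild type (2.74-fold, adjusted p = 0.00832). Both det2 arrays were nearly equal and well below both wild-type arrays. The summed signal of EXPA7 and EXPA18 was 142.4 to 192.7 in dark det2, against 377.9 to 794.7 in dark wild type, and EXPA18 fell (log2 -1.68 ± 0.51, adjusted p = 0.0208) while EXPA7 had the same value without passing (adjusted p = 0.0672).

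CSLC04 had 1262.7 and 1527.8 in det2, against 2579.7 and 2430.4 in wild type (1.79-fold, adjusted p = 0.0102). CSLC5 had 605.6 and 660.3, against 1073.9 and 1028.1 (1.65-fold, adjusted p = 0.00287). CSLC6 had 347.4 to 380.5, against 500.5 to 582.8 (1.47-fold, adjusted p = 0.0222). ATCSLC08 and CSLC12, the remaining xyloglucan backbone genes, had values of 0.19 and 0.10 and did not pass.

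TBL41 had 152.5 and 134.8 in det2, against 336.0 and 561.0 in wild type (2.83-fold, adjusted p = 0.0128). TBL19, which belongs to the group that acetylates xyloglucan, had 32.7 and 11.3, against 97.9 and 72.0 (2.75-fold, adjusted p = 0.0037). Dark det2 held the 2 lowest TBL19 signals of the 14 arrays, near the pseudocount, so the size of its change depends on that constant. TBL34, a xylan acetyltransferase, had 108.9 and 58.0, against 193.1 and 171.4 (2.06-fold, adjusted p = 0.0139).

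TBL18, TBL39 and TBL38 fell 1.65-fold, 1.52-fold and 1.34-fold (adjusted p = 0.0146, 0.0447 and 0.0376). TBL38 is a pectin acetylesterase known from seed mucilage. CSLD2, which serves wall synthesis in tip-growing cells such as root hairs, had 938.2 and 944.3, against 1476.4 and 1456.5 (1.55-fold, adjusted p = 0.00232). COB was 0.31 lower and did not pass (adjusted p = 0.105).

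GH9B8, a class B endoglucanase, had 983.5 and 917.6 in det2, against 325.1 and 371.6 in wild type. It rose 2.66-fold (log2 1.41 ± 0.29, adjusted p = 0.00253). GAUT15, of a family named for the synthesis of the pectin homogalacturonan, had 375.6 and 284.5, against 140.9 and 119.2, a rise of 2.36-fold (log2 1.24 ± 0.23, adjusted p = 0.00118). Dark det2 carried the brightest arrays of both genes. The calls of GH9C2, GH9B13, GH9B7, GH9B8, GAUT15, CSLC5, CSLD2 and TBL19 held with each array left out. TBL38, TBL39 and CSLC6 were lost without det2 replicate 1 or 2 or wild-type replicate 1, and TBL38 and TBL39 also without wild-type replicate 2; TBL18, TBL34 and TBL41 were lost without det2 replicate 2, TBL18 and TBL34 without wild-type replicate 1, TBL41 and GH9C1 without wild-type replicate 2, and CSLC04 without det2 replicate 1 (adjusted p up to 0.213). Fitted on the compared arrays alone, TBL19, CSLC6, TBL38 and TBL34 did not pass (adjusted p up to 0.178), nor did TBL38 and TBL39 after quantile normalization.

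**Figure D4:**
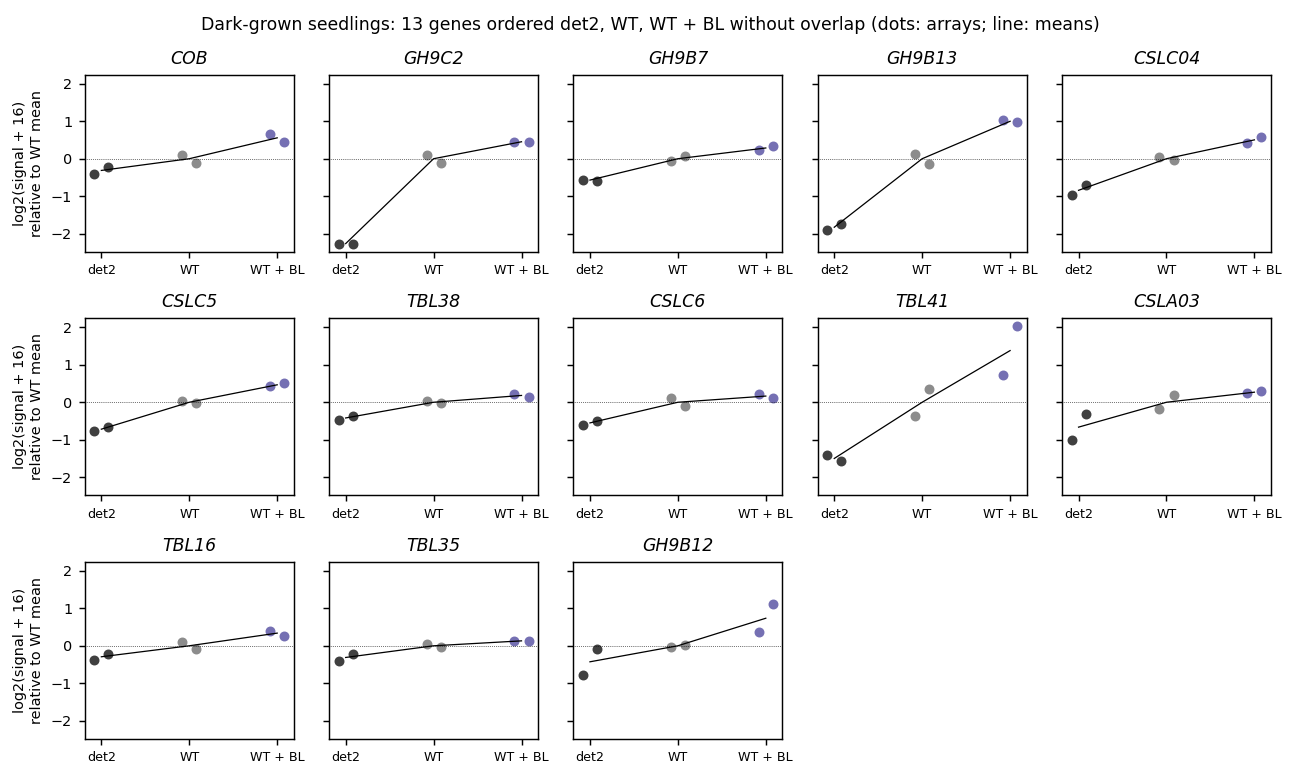
Log2(signal + 16) of each dark-grown array relative to the untreated wild-type mean (vertical) for det2, untreated wild type and wild type with BL (horizontal), in the 13 members whose arrays did not overlap at any step; dots are arrays and lines join group means. All lines climb by construction; GH9C2 and GH9B13 lie lowest in det2, at log2 -2.26 and -1.83.

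In the dark, 13 of 38 members (34.2%) had every det2 array below every untreated wild-type array and these below every BL-treated array, beside 7.13% of all probe sets. They were COB, GH9C2, GH9B7, GH9B12, GH9B13, CSLC04, CSLC5, CSLC6, CSLA03, TBL16, TBL35, TBL38 and TBL41. The opposite order was met by 0 of 38 members, beside 4.92% of all probe sets. Both steps use the same untreated arrays, and of the 13 only GH9B13 passed at both. The step from det2 to wild type also carries the limit on processing given above. CSLA03, which makes mannan backbones, had values of -0.66 in det2 and 0.27 with BL, and TBL16, with no assigned polymer, had -0.29 and 0.34, with no call in either gene.

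Without shared arrays, the effect of BL in light can be set beside that of det2 in the dark. CSLC04, CSLC5, GH9B13 and TBL41 were higher with BL and lower in det2, and GH9C1 was lower in both. Calls of the first kind were made for 10.5% of members, beside 0.652% of all probe sets, and of the second kind for 2.63%, beside 0.984%. Over all 38 members the values correlated at -0.02, beside 0.16 over all probe sets. Values above 0 with BL and below 0 in det2 were seen in 18 members (47.4%), beside 24.3% of all probe sets. GH9B8 and GAUT15 were both higher in det2. With BL in light GH9B8 had a value of -0.92, of the opposite sign, and GAUT15 one of 0.78, of the same sign, neither passing.

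In light-grown det2, 13 members differed from dark-grown det2, 9 lower and 4 higher. The dark det2 arrays are the same as those compared with wild type above. Opposite calls in both comparisons, as for TBL19, GH9C1, GH9B8 and GAUT15, therefore rest on shared arrays. In all probe sets 37.2% passed, 19.5% higher and 17.7% lower, against 10.5% of members higher and 23.7% lower. The members' median was -0.24, against 0.01 for all probe sets.

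GH9B13 had 133.3 and 107.6 in the light, against 721.9 and 804.1 in the dark. This was a fall of 5.73-fold (log2 -2.52 ± 0.20, adjusted p = 1.55e-06). GH9B13 was thus lower in light in both genotypes, although det2 grew in light for 7 days and wild type was lit for 2 h. GH9B8 had 321.2 and 344.3, against 983.5 and 917.6 (2.77-fold, adjusted p = 0.00169), which put it at the level of dark wild type. GH9B7 fell 1.73-fold (adjusted p = 0.000525), with 1002.3 and 1054.2, against 1807.2 and 1772.7.

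CSLD2 had 492.2 and 515.8 in the light, against 938.2 and 944.3 in the dark (1.84-fold, adjusted p = 0.000183). TBL39, with no assigned polymer, had 356.1 and 373.3, against 917.4 and 920.0 (2.46-fold, adjusted p = 0.000544). GAUT15 had 170.2 and 159.5, against 375.6 and 284.5 (1.9-fold, adjusted p = 0.00662). For CSLD2 and TBL39 the dark det2 arrays already lay below those of dark wild type, and the light-grown ones were lower still. CSLC04, GH9C2 and TBL38 fell 1.7-fold, 1.65-fold and 1.33-fold (adjusted p = 0.0163, 0.00173 and 0.0391).

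TBL19 had 101.0 and 90.1 in the light, against 32.7 and 11.3 in the dark, and rose 3.06-fold (log2 1.61, adjusted p = 0.00172). On the log2 scale this rise was 2.24 with a pseudocount of 1 and 0.9 with 64. GH9C1 had 379.4 and 348.1, against 154.8 and 155.0 (2.22-fold higher, adjusted p = 0.0264). TBL45 had 865.9 and 848.4, against 460.4 and 614.6 (1.59-fold higher, adjusted p = 0.013), and TBL26, which acetylates mannan, had 219.8 and 180.2, against 105.8 and 131.1 (1.61-fold higher, adjusted p = 0.044). The summed EXPA7 and EXPA18 signal was 633.2 to 668.9 in the light, against 142.4 to 192.7 in the dark. Both genes rose (log2 2.46 and 1.49, limma adjusted p = 0.0117 and 0.0349). CSLD2, described above as serving tip-growing cells such as root hairs, went the other way (log2 -0.88). The part of root hairs in the GH9C1 values was not tested.

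TBL45 rose with growth in light in det2 and fell after 2 h of light in wild type. These comparisons share no array, but differ in genotype and in the length of light, 7 days against 2 h, and the difference between them was not tested. CSLC04 and GH9B13 fell in both (5.26% of members, beside 3.56% of all probe sets). The calls of GH9B13, GH9B7, GH9B8, GH9C2, CSLD2, TBL39 and TBL19 held with each array left out. GH9C1, TBL26 and TBL38 were lost without any of the 4 arrays, CSLC04 without either light array or dark replicate 2, TBL45 without either light array or dark replicate 1, and GAUT15 without dark replicate 1 (adjusted p up to 0.222); the count without light replicate 2 was 8.

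**Figure D5:**
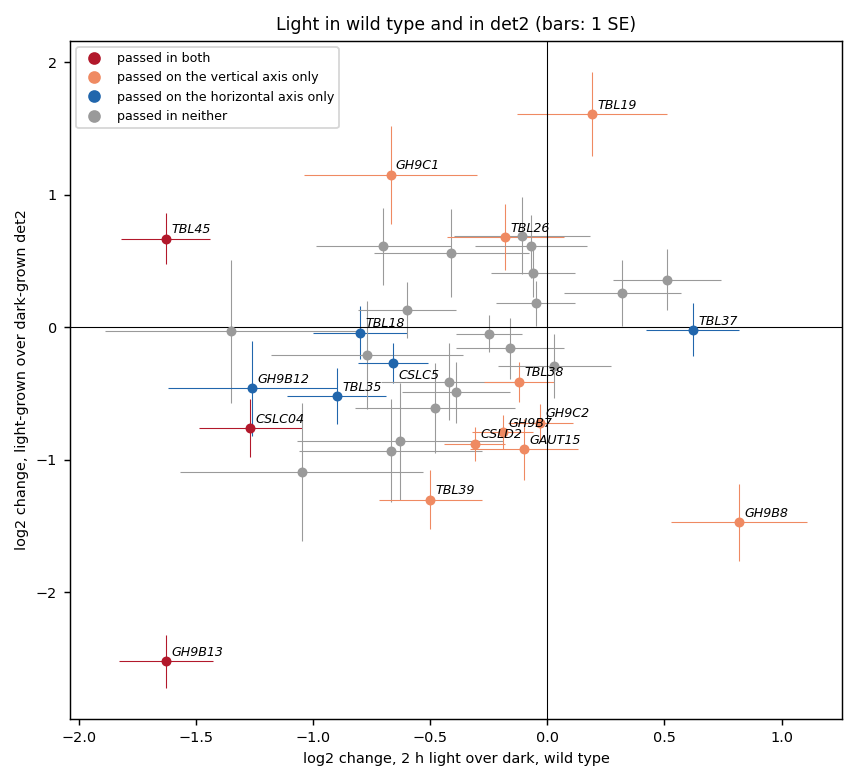
Log2 change in det2 grown in light over det2 grown in the dark (vertical) against 2 h of light over darkness in wild type (horizontal) for the 38 members, with bars of 1 SE. GH9B13 and CSLC04 passed below 0 on both axes, and TBL45 passed above 0 on the vertical and below 0 on the horizontal.

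After 8 h of darkness, det2 seedlings 14 days old that had grown in light differed from light-grown det2 of 7 days in 1 member. TBL37 had 1958.9 and 1947.3 after return to the dark, against 1051.1 and 976.7 in light, and rose 1.91-fold (log2 0.94, adjusted p = 0.00925). In all probe sets 12.4% passed, 5.98% higher and 6.4% lower, against 2.63% of members higher. The TBL37 arrays were nearly equal within each group, yet the call was lost without any 1 of the 4 (adjusted p up to 0.0815). Age and darkness cannot be told apart here. COB had 2712.4 and 2777.1, against 2114.3 and 2018.6, and did not pass (log2 0.41, adjusted p = 0.0868). GH9B13 had 114.6 and 192.5, against 133.3 and 107.6, so that after 8 h in the dark it was still far below the 721.9 and 804.1 of dark-grown det2.

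Across the 8 comparisons, GH9B13 passed in 6, TBL45 and CSLC04 in 4, and 15 of the 38 members in none. Several comparisons share arrays, and the matching shares over all probe sets were not computed, so these counts are a description only. Those 15 had values between -1.35 and 1.08 over all 8 comparisons and included the xylan genes TBL28, TBL30, TBL32 and IRX15-L, the mannan genes CSLA03, TBL23 and TBL25, and the membrane-anchored endoglucanase GH9A3. The TBL32 probe set is of a type that may match more than 1 transcript. The 11 genes below the minimum had mean signals of 10.55 to 45.5, and their brightest single array reached 104.9. Nearest to the minimum of 50 were GH9B17 at 50.26 and GH9C3 at 54.46 inside it, and CSLA01 at 45.5 and TBL20 at 42.8 outside it.

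Of 72 further genes listed for wall polymers and for marker cell types, 8 had a probe set of 1 gene and were tested, and no xylem or secondary wall marker was among them. The 6 wall genes were 4 listed as partners of cellulose synthesis (AT1G45688, AT5G42860, AT2G41770 and AT3G57420) and 2 listed for wall acetylation, AT3G03210 and AT5G06700. AT5G06700 is TRICHOME BIREFRINGENCE, which gave the TBL family its name. It rose with BL in light (log2 0.99 ± 0.21, adjusted p = 0.0175) and fell in dark det2 (log2 -0.56 ± 0.21, adjusted p = 0.0486). Of the 6, 4 were lower and 0 higher in dark det2 by limma, beside 17.9% and 19.2% of all probe sets. With BL 1 was higher in light, beside 2.17%, and 0 passed in the dark, beside 3.42%. After light 1 was higher and 1 lower in untreated wild type, beside 10.1% and 9.76% of all probe sets. The counts were the same with BL, beside 8.97% and 8.38%. In light-grown det2 1 was higher and 2 lower, beside 19.5% and 17.7%. On return to darkness 1 was higher, beside 5.98%.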

How the data were processed

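The deposited values were 1 table of linear signal intensity for 14 arrays of 1 colour. Per the submitters' processing notes the tools were MAS5, which summarises each probe set into a background-adjusted intensity, and limma, with no versions stated. The mean after trimming 2% at each end was 500 on all arrays as deposited. Of 22810 probe sets, 64 controls were left out, 4958 with a mean under 50 were removed and 17788 were kept. Values were fitted as log2(signal + 16) with limma 3.58.1 in R 4.3.3, 1 mean per group over all 14 arrays and a variance trend, with Benjamini-Hochberg adjustment within each of 8 comparisons and a threshold of 0.05. Precision is limited by having 2 arrays in each group. The fit was tested on simulated data. Figures used matplotlib 3.10.9.

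Platform annotation, which can be old, names 1 gene for 13513 probe sets, several for 503 and none for 8730. All 49 matching genes were found in RefSeq (TAIR10.1), used for names and neighbours only. No genome or sequence was used here. DET2 has no named probe set, so the mutant label was not checked. The members, the 8 lists (72 genes) and the role groups were chosen with earlier results of these data known. Named were COB, every passing member up to 8 per comparison with the largest changes (the 2 largest differences where none passed), and, with per-array values, the 12 members with most calls and COB; the other members named, many with per-array values too, were added for their role after their values were seen. Of the lists, those for xyloglucan, xylan, pectin, nucleotide sugars and xylem had 0 genes tested. Alternatives were pseudocounts of 1 and 64, no signal filter, quantile normalization, no variance trend, a replicate block, only the arrays compared, and leaving out each array. Titles number the replicates. Deviations of same-numbered arrays correlated at 0.227 to 0.429 between wild-type groups (6 correlations) and at -0.033 to 0.016 between det2 groups (3). Between a det2 and a wild-type group they correlated at -0.049 to 0.041 (12). With only 2 numbers per group this does not settle a pairing.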

Additional observations from a re-analysis of the deposited data

How the results depend on the processing

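For single genes, 578 of the alternative values were counted as unchanged, 100 kept direction but no longer passed and 6 passed anew. Of the values that passed in the main fit, 0 reversed. A change of direction was not counted for values that had not passed, so the 578 can include such changes. Member counts with an array left out can include members that had not passed with all arrays, so they do not count calls kept. In dark det2 against wild type the count of members stayed within 11 to 19 of the 16 in every setting (12 without each array in turn), and for light-grown det2 within 12 to 17 of the 13 (8 to 10 without an array). With BL in the dark (1 member), the count was 2 with a pseudocount of 64 and 2 after quantile normalization, as COB then passed too. With an array left out, the rise of GH9B13 there was 1.82-fold to 2.19-fold. With BL in light (8), it was 5 without the variance trend, 1 with the wild-type arrays alone and 3 to 6 without an array. For light with BL (7) it was 3 with the wild-type arrays alone and 2 to 8 without an array; for light alone (8) it was 5 to 7 without an array. For det2 returned to darkness (1) it was 4 with the det2 arrays alone and 0 without each array. The interaction had 0 members throughout. Over all probe sets 2 passed with a pseudocount of 64, 1 without the variance trend and 2 with the replicate block on wild-type arrays alone. On the wild-type arrays alone, the probe sets passing were 175 for BL in the dark (608 with all arrays), 214 with BL in light (756), 2253 with light (3526) and 1979 with light and BL (3086); on the det2 arrays alone 4767 passed on return to darkness (2202). Fewer arrays then give the estimate of spread; how far this or the genotypes' own spread set these counts was not tested.

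With the replicate number as a block, which the labels give without saying what it marks, the member counts were 2 for BL in the dark, 11 for light, 10 for BL in light, 10 for light with BL, 0 for the interaction, 19 for dark det2, 15 for light-grown det2 and 2 for return to darkness. With the block and only the arrays of the genotypes compared, a setting added after the data were seen, they were 4, 13, 10, 13, 0, 11, 17 and 4 in the same order. COB with BL in the dark passed with the block (adjusted p = 0.0349) and with the block on wild-type arrays alone (adjusted p = 0.0461). Same-numbered arrays deviated together in the wild type and not in det2, a hint from the data and not from the labels. Dim genes carry most of the dependence on the constant: TBL19 in dark det2 fell by 2.06 on the log2 scale with a pseudocount of 1 and by 0.8 with 64.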
